A study of Homo sapiens with 5 samples.

Results

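The 8 genes described here are keratins that squamous epithelia use above their basal layer or under stress: KRT6A, KRT6B, KRT6C, KRT16, KRT13, KRT4, KRT10 and KRT1. They were chosen by name, 8 of the 33538 genes in the count matrices, and all 8 were in each of the 5 matrices. KYSE30 is an established human esophageal squamous cell carcinoma (ESCC) line, and every library held KYSE30-Luc-GFP cells, which carry luciferase and green fluorescent protein (GFP). One library was made from parental cells in culture and 4 from GFP-positive cells sorted out of the lungs of NOD SCID mice, an immunodeficient strain that received the cells by tail vein at 4 to 5 weeks of age. The lungs were taken at 6 h, at 48 h, at 2 months or at 4 months. The study's methods give 3 mice at 6 h, 16 mice at 48 h, 6 mice at 2 months, then 1 mouse at 4 months, and no barcode carries the label of its mouse. Each timepoint was therefore 1 sample without a replicate, no test between timepoints was possible, and the 4-month values came from a single mouse.

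Keratins build the intermediate filaments of epithelial cells as obligate pairs of a type I and a type II chain. KRT6A, KRT6B, KRT6C, KRT4 and KRT1 are type II, and KRT16, KRT13 and KRT10 are type I. Basal squamous cells use KRT5 with KRT14, KRT13 pairs with KRT4 above the basal layer of the esophagus, KRT10 pairs with KRT1 above the basal layer of skin, and KRT6 with KRT16 and KRT17 appears in wounded or hyperproliferative epithelium. Simple epithelia use KRT8 with KRT18, and KRT7 and KRT19 beside them.

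On GRCh38, in GENCODE 44 and matched by gene identifier, the type II members lay on the minus strand of chromosome 12: KRT6B at 52446651 to 52452146, KRT6C at 52468516 to 52473805, KRT6A at 52487176 to 52493257, KRT1 at 52674736 to 52680407 and KRT4 at 52806549 to 52814116. The type I members lay on the minus strand of chromosome 17: KRT10 at 40818117 to 40822614, KRT13 at 41500981 to 41505705 and KRT16 at 41609778 to 41615899. All 8 are protein coding. KRT6A, KRT6B and KRT6C are near copies of each other, so it matters where the counted tags fall. Of all 50-base windows of the KRT6A transcript, 39.2% also occurred in a transcript of another gene, but of the 451 windows in its last 500 bases, where 3′ tags come from, 0 did. The last 500 bases of KRT6B, KRT6C, KRT13, KRT4, KRT10 and KRT1 also held 0 shared windows. KRT16 shared 71 of its 451 windows, 15.7%, so its counts are less certain. Most of the sharing was with the pseudogene KRT16P3 (59 windows) and with ENSG00000290657 (34), and fewer windows were shared with KRT16P1 (16) and KRT17 (12). An antisense gene, KRT10-AS1, overlaps KRT10 and a plus-strand gene overlaps KRT13, and the sources used here do not say whether the counting used strand.

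The RefSeq promoter table on GRCh38 held KRT4 and KRT10, a member near 0 before 2 months and the member with the most even level. They are shown to set these promoters side by side, as the 250 bases before the transcription start, 5′ to 3′ on the gene's strand, with capitals for the motif TATAAA.
KRT4, chr12:52814117-52814366, minus strand: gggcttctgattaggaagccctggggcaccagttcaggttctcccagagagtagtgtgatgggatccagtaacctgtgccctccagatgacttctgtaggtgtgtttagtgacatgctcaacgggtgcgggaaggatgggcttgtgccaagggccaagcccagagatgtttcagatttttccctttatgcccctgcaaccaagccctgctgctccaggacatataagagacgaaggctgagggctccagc
KRT10, chr17:40822615-40822864, minus strand: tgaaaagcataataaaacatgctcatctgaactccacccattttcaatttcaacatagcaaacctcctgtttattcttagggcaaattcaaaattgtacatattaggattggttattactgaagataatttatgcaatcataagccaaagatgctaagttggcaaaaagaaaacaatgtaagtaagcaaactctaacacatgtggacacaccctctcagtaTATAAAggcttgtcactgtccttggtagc

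Both strands were searched for 4 motifs. TATAAA occurred 1 time in the KRT10 promoter, beginning at base -29 from the start, and 0 times in that of KRT4, against 10.7% of all 35116 promoters of this length. The KRT4 window reads TATAAG from base -29, so this difference rests on the exact match. The AP-1 motif TGANTCA was in neither (6.57% of all promoters). CACCC, a motif of KLF factors, was found 2 times for KRT10 and 1 time for KRT4 (54.7% of all promoters), and CCAAT was found 1 time for KRT10 and 0 times for KRT4 (32.0%). The GC content was 54.8% for KRT4 and 34.8% for KRT10, beside a median of 58.0%. A match describes the letters of this window only.

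The files gave the number of unique molecular identifiers (UMIs) of each gene in each barcode, where 1 UMI marks 1 captured molecule at its 3′ end, so levels were not divided by transcript length. Of 26712 barcodes, 19986 cells were kept that had 200 to 8000 genes, 1000 UMIs or more and a mitochondrial share of no more than 15%, from 1149 at 48 h to 9059 in the parental library. The deposited libraries held 34630469 (6 h) to 206526092 (parental) UMIs, and the median depth of a kept cell ran from 12979 UMIs at 6 h to 39076 at 48 h. A barcode found in another library too was carried by 398 kept cells, and leaving them out changed no count of members given here by more than 1.5 times. Levels are UMIs summed over the cells of a library scaled to a library of 1000000 (CPM), with exact Poisson intervals at 95%, and shares of cells have exact Clopper-Pearson intervals. The intervals cover counting error only. Of markers of other cell types, leukocyte markers summed to 1.72 to 34.3 CPM (highest at 6 h), fibroblast markers to 2.37 to 13.6 CPM, alveolar and airway markers to 0.981 to 5.80 CPM, and endothelial and erythrocyte markers to under 1 CPM in each library. The counts were made on the human genome GRCh38, so these sums cannot show how many mouse lung cells were present. The 6 squamous epithelium markers summed to 55.9 CPM in the parental library. SFN was at 29.2 CPM, EPCAM at 23.0, TP63 at 2.62 and KRT15 at 1.07 CPM. KRT5 and KRT14 were the lowest of them, at 0.00488 and 0.0488 CPM.

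The type II stress keratin KRT6A had the highest level of the 8 genes at 6 h, 2 months and 4 months and KRT10 in the other 2 libraries, while KRT6A, KRT6B and KRT16 all stood higher in each lung library than in parental cells. KRT6A was at 5.55 CPM (5.23 to 5.88) in parental cells, 578 CPM (569 to 586) at 6 h, 97.5 CPM (94.7 to 100) at 48 h, 2524 CPM (2513 to 2535) at 2 months, then 3969 CPM (3958 to 3980) at 4 months. The level at 6 h was thus 104 times that of parental cells (98.1 to 111), the level at 48 h 17.6 times and that at 4 months 716 times (675 to 759), with a dip between 6 h and 48 h. KRT6B, its neighbour, was at 0.0195 CPM from 4 UMIs in parental cells, 45.2 CPM (43.0 to 47.6) at 6 h, 2.61 CPM (2.17 to 3.11) at 48 h, 89.2 CPM (87.2 to 91.3) at 2 months, then 356 CPM (353 to 359) at 4 months. It showed the same dip at 48 h. KRT6A held 91.7% to 99.6% of the UMIs of the 3 KRT6 genes in each library, with the lowest share at 4 months.

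KRT16, the type I partner of KRT6, was at 0.132 CPM (0.0869 to 0.192) in parental cells, 30.1 CPM (28.3 to 32.1) at 6 h, 24.2 CPM (22.8 to 25.6) at 48 h, 166 CPM (163 to 169) at 2 months, then 406 CPM (402 to 409) at 4 months. Unlike KRT6A and KRT6B it was nearly as high at 48 h as at 6 h, with a ratio of 0.803 (0.736 to 0.875). KRT6C, the least used copy, had 1 UMI in parental cells and, in the lungs, 4 at 6 h, 2 at 48 h, 69 at 2 months, then 243 at 4 months, which is 1.94 CPM (1.70 to 2.20) at its highest. It stayed under 5 CPM, the minimum set here for a comparison, in all libraries.

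The mucosal pair of the esophagus had its highest levels at different timepoints, with both genes above 5 CPM at 2 and 4 months. KRT13 was at 1.80 CPM (1.62 to 1.99) in parental cells, 221 CPM (216 to 226) at 6 h, 11.6 CPM (10.7 to 12.7) at 48 h, 48.2 CPM (46.7 to 49.7) at 2 months, then 16.9 CPM (16.1 to 17.6) at 4 months. Its highest level was at 6 h. KRT4, its usual partner, was at 0.0635 CPM (13 UMIs) in parental cells, 0.154 CPM (5 UMIs) at 6 h, 0.385 CPM (18 UMIs) at 48 h, 97.9 CPM (95.8 to 100) at 2 months, then 45.2 CPM (44.1 to 46.4) at 4 months. KRT4 was thus near 0 where KRT13 was highest, and highest at 2 months.

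The genes of the epidermal pair lay far apart in level. KRT10 was at 387 CPM (384 to 390) in parental cells, 443 CPM (436 to 451) at 6 h, 372 CPM (366 to 377) at 48 h, 426 CPM (421 to 430) at 2 months, then 393 CPM (389 to 396) at 4 months. The parental and 4-month intervals overlapped and the other neighbours in the order of levels did not, but the highest was only 1.19 times the lowest (443 against 372 CPM). KRT1, its usual partner, had 1 UMI in parental cells and, in the lungs, 22 at 6 h, 0 at 48 h, 28 at 2 months, then 64 at 4 months, at most 0.676 CPM (0.424 to 1.02), and the 0 at 48 h allows up to 0.0641 CPM.

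**Figure D1:**
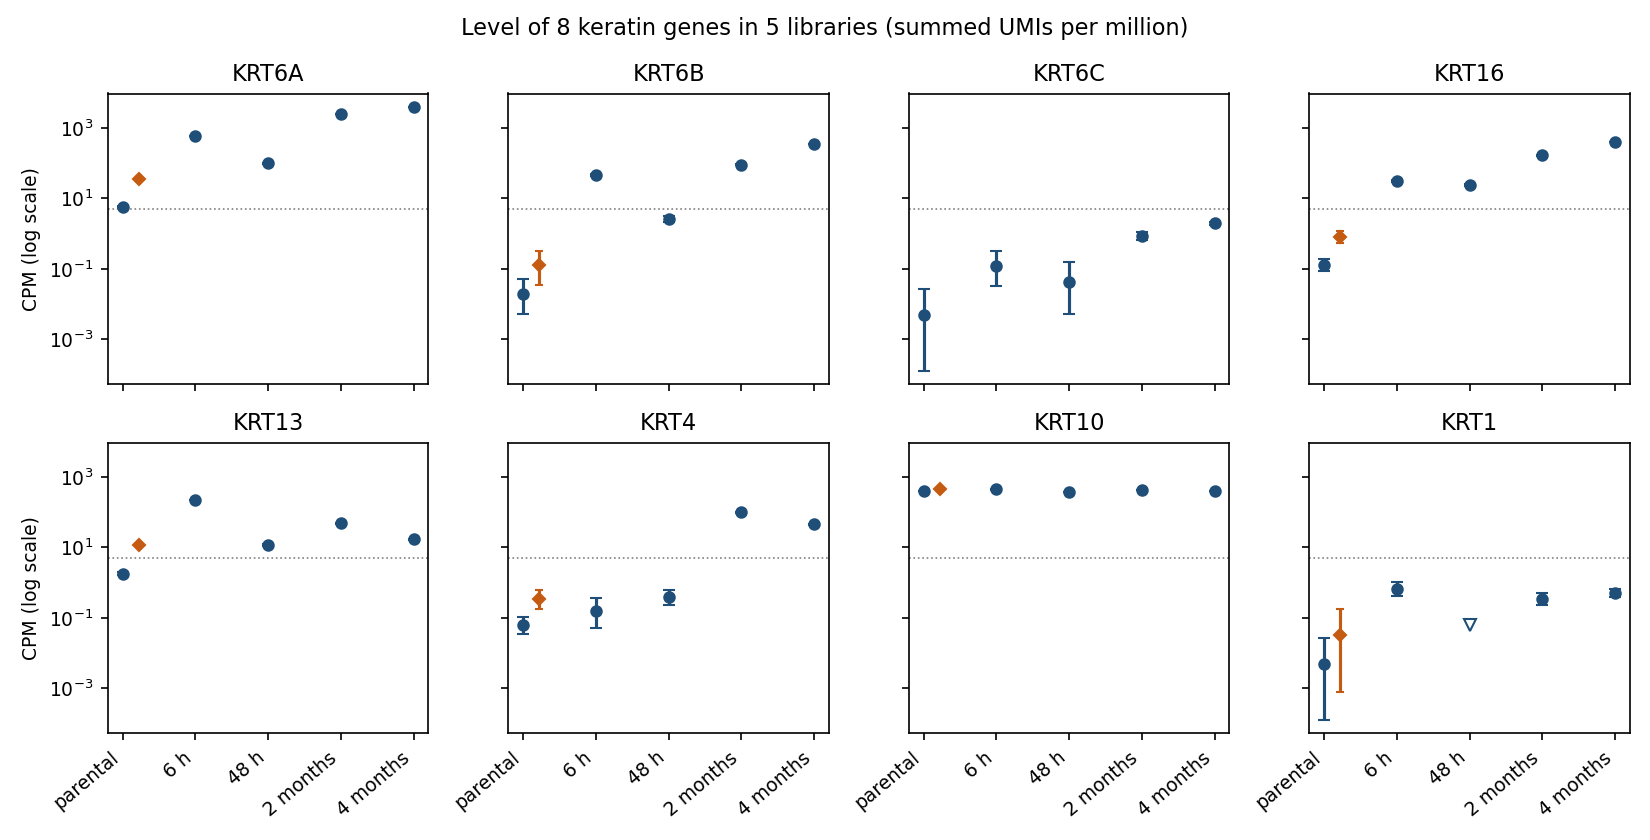
Level of each keratin gene in CPM on a log axis (y) in the parental library and the 4 lung libraries (x); circles are the whole library with exact 95% Poisson intervals, orange diamonds are parental signature-positive cells, the open triangle is the limit that 0 UMIs allow, and the dotted line is the 5 CPM minimum. KRT6A reaches 3969 CPM at 4 months, KRT13 peaks at 6 h with 221 CPM, KRT4 at 2 months with 97.9 CPM, and KRT10 stays between 372 and 443 CPM.

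To compare libraries, log2 ratios were taken with 1 CPM added to both sides, over genes that reached 5 CPM on either side, and a gene was counted when the ratio was past 2-fold. This shrinks the ratios of genes near 0. A gene under 5 CPM in one group was tested only where the other group reached 5 CPM, so it could be counted in 1 direction only. In parental cells KRT6B, KRT16, KRT13 and KRT4 were under 5 CPM. The rule therefore fixed that none of these genes was counted as lower in the lungs than in parental cells. The comparisons with parental cells share that library. At 6 h against parental cells 4 of 5 members tested were higher (KRT6A by 6.47, KRT13 by 6.31, KRT6B by 5.50 and KRT16 by 4.78 on the log2 scale) and 0 were lower, where 17.2% of 10852 genes were higher and 27.8% lower. At 48 h 3 of 4 were higher (KRT16 by 4.48, KRT6A by 3.91, KRT13 by 2.18), where 19.7% of all genes were higher and 24.2% lower. At 2 months 5 of 6 were higher, from 4.14 for KRT13 to 8.59 for KRT6A, where 10.4% of all genes were higher and 11.5% lower. At 4 months 5 of 6 were higher, from 2.67 for KRT13 to 9.24 for KRT6A, where 13.4% were higher and 30.0% lower. KRT10 was the tested member that was not past 2-fold in each of these, at 0.19, -0.06, 0.14 and 0.02. The median log2 ratio of all genes was between -0.44 (4 months) and -0.12 (48 h).

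Between neighbouring lung timepoints the members parted. At 48 h against 6 h, 0 of 5 were higher and 3 were lower, KRT13 at -4.14, KRT6B at -3.68 and KRT6A at -2.55, where 3.24% of 9605 genes were higher and 1.42% lower. At 2 months against 48 h, 5 of 6 were higher, from 1.96 for KRT13 to 6.16 for KRT4, where 12.2% of all genes were higher and 13.0% lower. At 4 months against 2 months, 2 of 6 were higher, KRT6B at 1.98 and KRT16 at 1.28, and 2 were lower, KRT13 at -1.46 and KRT4 at -1.10, with KRT6A between at 0.65, where 3.03% of all genes were higher and 9.38% lower. KRT4 lay close to the 2-fold line and was at -0.997 with a mitochondrial limit of 10%.

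The parental culture was mixed. The study marks candidate metastasis-initiating cells by a filter on 7 genes, none a keratin: at least 1 UMI in a set of 3 and at least 1 UMI in a set of 4. This filter held for 1310 of 9059 parental cells (14.5%), called signature-positive here, and for 98.2% of cells at 6 h, 95.6% at 48 h, 81.8% at 2 months, then 99.2% at 4 months. The median depth was 24831 UMIs in positive and 22772 in negative parental cells. KRT6A was at 35.7 CPM in signature-positive and 0.0462 CPM in signature-negative parental cells, and KRT13 at 11.4 and 0.0462 CPM. A KRT6A UMI was found in 30.0% (27.5 to 32.6) of the positive cells and in 0.103% (0.0446 to 0.203) of the negative cells, so nearly all parental KRT6A came from the minority. Of 3 members tested between these classes, 2 were past 2-fold higher (KRT6A by 5.13, KRT13 by 3.57) and 0 lower, where 12.9% of all genes were higher and 18.8% lower. KRT10 was nearly even, at 460 and 374 CPM. KRT16 had 26 of its 27 parental UMIs and KRT4 11 of 13 in positive cells, and both were under 5 CPM there.

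Set against parental signature-positive cells alone, the ratios of KRT6A and KRT13 were smaller. KRT6B, KRT16 and KRT4 were under 5 CPM in those cells too, so they could not be counted as lower. At 6 h, KRT6A was higher by 3.98, KRT13 by 4.17, KRT6B by 5.36 and KRT16 by 4.10, so that 4 of 5 members were past 2-fold higher and 0 lower, where 10.6% of all genes were higher and 12.3% lower. At 48 h, KRT6A was higher by 1.43 and KRT16 by 3.79, but KRT13 stood at 0.03, with 11.6 CPM against 11.4 CPM, so 2 of 4 were higher and 0 lower (12.8% of all genes higher, 9.43% lower). The 48 h level of KRT13 came from 42 cells, and 1 cell held 156 of its 545 UMIs. At 2 months 5 of 6 were higher and 0 lower (9.09% of all genes higher, 6.50% lower), and KRT13 stood at 1.99. The lung libraries were taken whole here, and 606 of 3322 cells at 2 months were signature-negative. KRT13 was at 65.8 CPM in the positive cells of that library, against 48.2 CPM in all its cells. At 4 months 4 of 6 were higher and 0 lower (8.18% of all genes higher, 14.4% lower), without KRT13, at 0.53.

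Signature-negative lung cells were few and shallow at 6 h, 48 h and 4 months (35, 50 and 34 cells with median depths of 1743, 1837 and 1490 UMIs). At 2 months there were 606, and they were deeper than the positive cells, with a median of 37140 against 19416 UMIs. There, KRT6A was at 3440 CPM in positive and 31.3 CPM in negative cells and was found in 88.5% and 11.7% of them, KRT4 was at 134 and 0.690 CPM, KRT16 at 227 and 0.736 CPM, and KRT10 at 454 and 348 CPM. All but KRT10 of these 4 genes were therefore concentrated in the positive class. With signature-positive lung cells only, a comparison chosen after seeing the data, 4 months against 2 months left KRT6A at 0.21, KRT6B at 1.54, KRT16 at 0.83, KRT13 at -1.90 and KRT4 at -1.54, so that KRT16 was no longer past 2-fold.

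The share of cells with at least 1 UMI depends on depth, so it was taken from all UMIs and again after drawing 1000 UMIs from each cell. KRT6A was found in 4.43% of parental cells and, in the lungs, 46.7% at 6 h, 25.4% at 48 h, 74.5% at 2 months, then 98.5% at 4 months, and at 1000 UMIs in 0.442%, 20.8%, 4.61%, 57.8% and 83.0%. Both series had the same order. KRT16 was found in 0.254%, 9.40%, 18.4%, 36.0% and 54.8% of cells in the same order of libraries, and at 1000 UMIs in 0%, 1.99%, 2.00%, 9.39% and 15.7%. The gap for KRT16 between 6 h and 48 h was thus not seen at equal depth.

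KRT13 was found in 1.49%, 30.7%, 3.66%, 11.3% and 5.20% of cells, and at 1000 UMIs in 0.199%, 10.7%, 0.609%, 3.19% and 0.756%. In parental signature-positive cells these shares were 9.69% and 1.30%, so the even CPM at 48 h did not mean an even share of cells. KRT4 was found in 0.0552%, 0.255%, 1.39%, 29.9% and 14.5%, and at 1000 UMIs in 0.0110%, 0%, 0%, 9.42% and 3.58%. KRT13 was most widespread at 6 h and KRT4 at 2 months in both series. KRT6B was found in 0.0442%, 12.6%, 2.52%, 22.3% and 55.7%, and KRT6C in at most 4.76% (4 months). KRT1 was found in 0.978% of cells at 4 months and in 0 of 1149 at 48 h, which allows a share of up to 0.261%. KRT10 was found in 82.8% to 96.8% of cells and, at 1000 UMIs, in 28.9% to 33.8%.

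**Figure D2:**
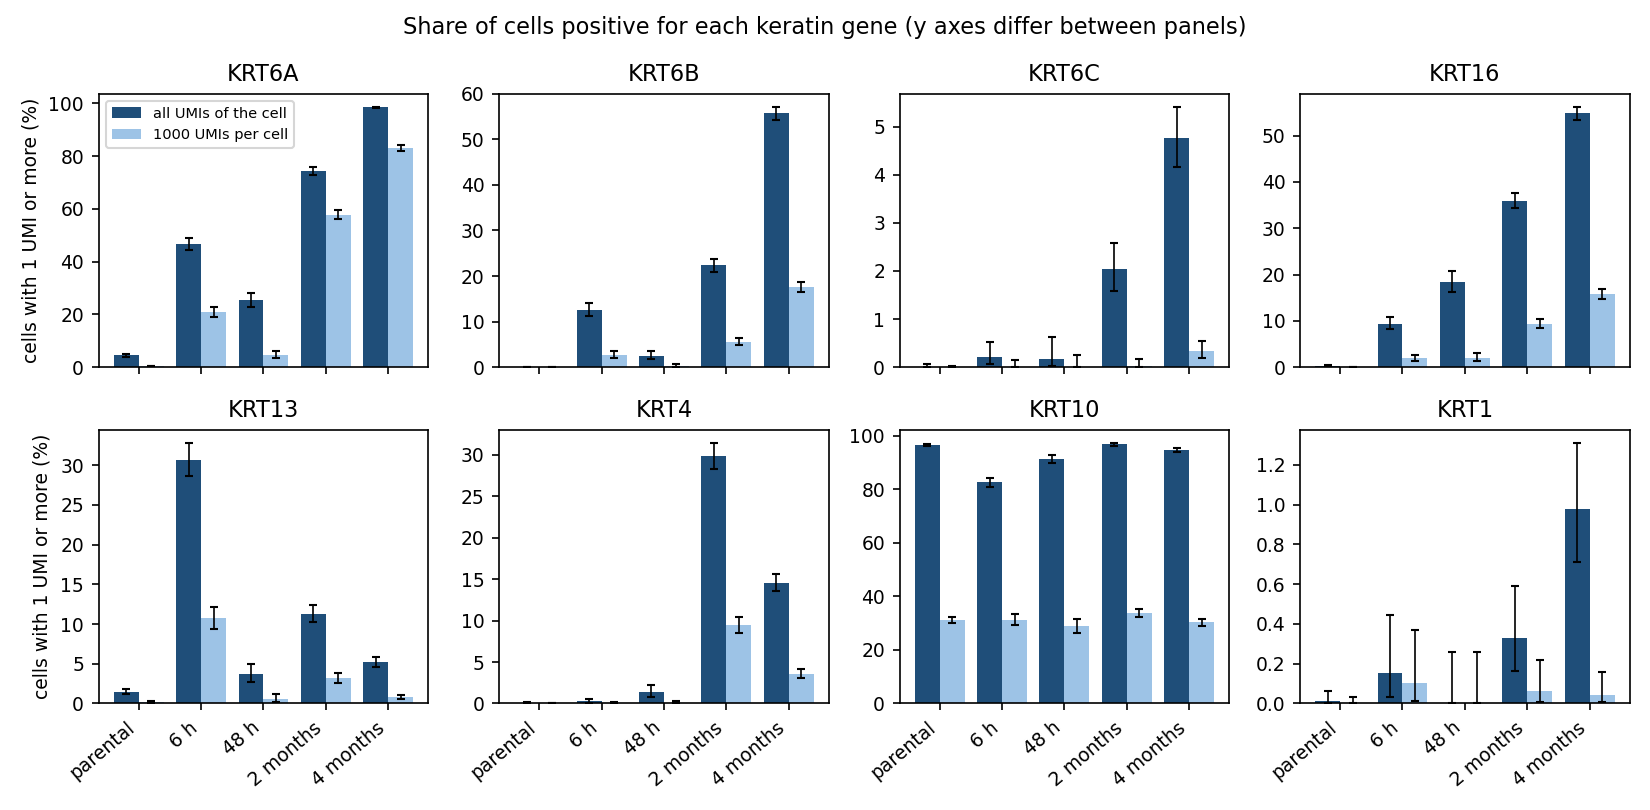
Percent of cells with at least 1 UMI of each gene (y, a scale for each panel) in the 5 libraries (x), from all UMIs of a cell (dark) and from 1000 UMIs drawn per cell (light), with exact 95% binomial intervals. KRT6A reaches 98.5% of cells at 4 months (83.0% at 1000 UMIs), KRT13 is most frequent at 6 h and KRT4 at 2 months, and the KRT10 shares at 1000 UMIs lie between 28.9% and 33.8%.

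The members differed in how evenly cells used them. The 10% of cells with most KRT10 per 10000 UMIs held 15% to 20.8% of its UMIs in the 5 libraries, which is close to an even spread. For KRT6A the top 10% held 66.2% at 6 h, 92.2% at 48 h, 40.4% at 2 months, then 30.2% at 4 months, so its use was widest at the last timepoint. The median cell had 0 KRT6A UMIs at 6 h and 48 h, 13.9 per 10000 at 2 months, then 28.3 at 4 months, and the highest cell had 657 per 10000 at 4 months. KRT16 stayed uneven, with 83.5% of its UMIs in the top 10% of cells at 2 months, then 81.3% at 4 months, when the median cell had 0.258 and the highest 542 per 10000. KRT6B lay between them at 4 months, with 68.5%. KRT13 and KRT4 were minority genes in late cells, with 98.9% (KRT13) and 73.7% (KRT4) in the top 10% at 2 months.

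In the filament as a whole, read from the UMIs of 14 type II and 13 type I keratin genes, the KRT6 genes became the leading type II keratins late. They were 1.34% of type II UMIs in parental cells, then 14.4% at 6 h, 1.87% at 48 h, 61.1% at 2 months, then 63.7% at 4 months. KRT8, of simple epithelia, was 82.7%, 73.5%, 90.4%, 21.1% and 8.74% in the same libraries, and the basal KRT5 was 0.00118%, 0.0121%, 0.0188%, 13.0% and 25.7%. On the type I side KRT16 stayed minor, at 0.00808%, 0.417%, 0.254%, 1.64% and 2.51%, while KRT17, another partner of KRT6, was 0.0299%, 0.0744%, 0.285%, 42.9% and 62.8%. KRT10 was 23.7% of type I UMIs in parental cells and 2.43% at 4 months at a nearly even CPM, while all type I keratins together were at 1631 CPM in parental cells and 16150 CPM at 4 months. The parental values are of the whole library, 14.5% signature-positive. In its signature-positive cells KRT18 was at 5559 CPM and KRT19 at 1231 CPM, against 1048 and 192 CPM in all its cells, and KRT10 was at 460 CPM. Changes from the parental makeup can therefore mix the signature classes, and no shares within a class are given. The 8 members summed to 395, 1319, 508, 3352 and 5188 CPM.

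**Figure D3:**
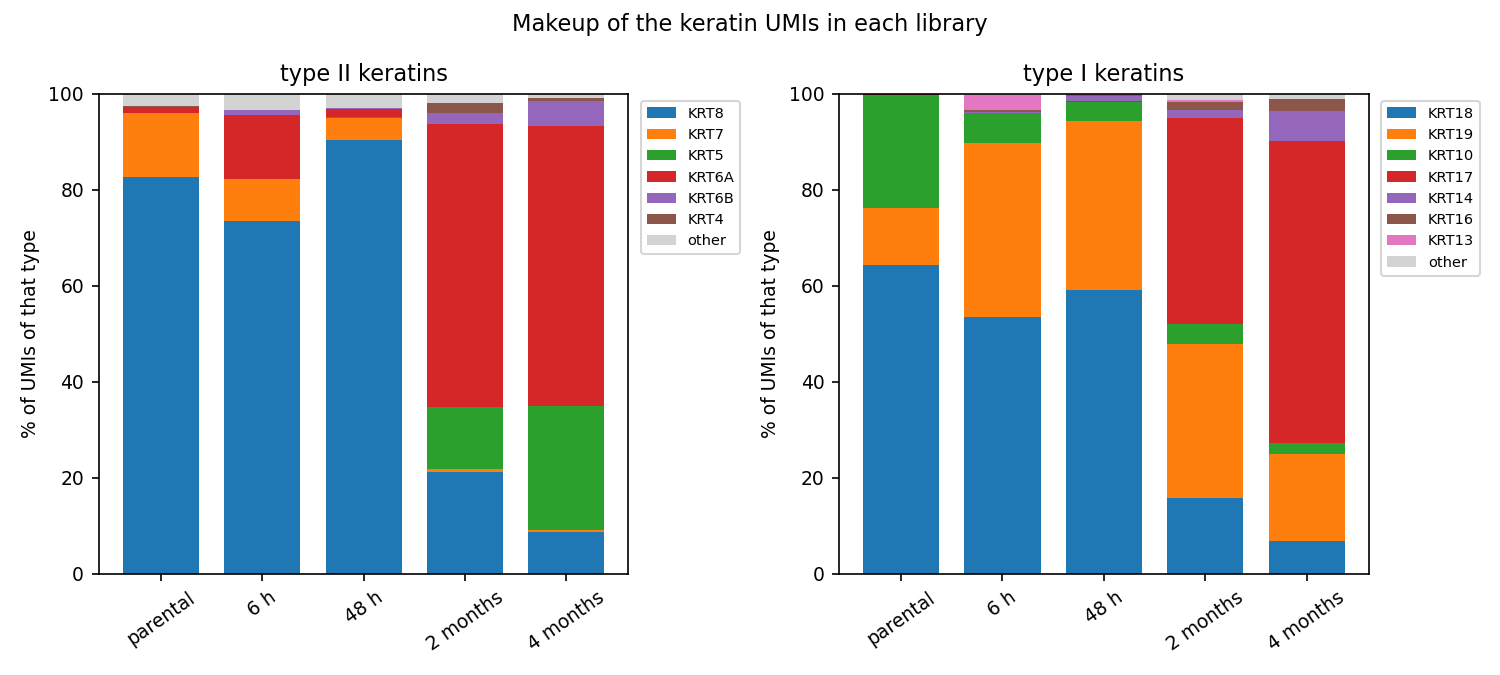
Makeup of type II (left) and type I (right) keratin UMIs as percent of all UMIs of that type (y) in each library (x), stacked by gene. KRT8 gives way to KRT6A and KRT5 on the type II side and KRT18 to KRT17 on the type I side at 2 and 4 months, with the KRT6 genes at 61.1% and 63.7% of type II UMIs.

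The partner and pathway genes came from lists, and the genes named from each are those with the largest and smallest log2 ratio at 4 months against parental cells. These counts stand beside the shares of all genes given above. They are given against the whole parental library and then against parental signature-positive cells alone, where most of them were smaller. The lung libraries were taken whole in both cases. List genes under 5 CPM in parental cells were tested only where a lung library reached 5 CPM, and could not be counted as lower. Of the 4 basal keratins, 3 of 3 tested were higher than in parental cells at 6 h and 48 h and 4 of 4 at 2 and 4 months. Against signature-positive cells these were 3 of 3, 2 of 3, 4 of 4 and 4 of 4. KRT17 was at 0.488, 5.38, 27.2, 4353 and 10139 CPM, KRT5 at 0.00488, 0.522, 1.0, 556 and 1749 CPM, and KRT14 at 0.0488, 19.8, 89.0, 170 and 1006 CPM in the 5 libraries. KRT15 had the smallest ratio of the 4, at 1.07, 20.1, 12.6, 21.0 and 23.3 CPM. KRT14 differed from KRT6A in that it was higher at 48 h than at 6 h. Of the 4 simple epithelial keratins, 4 were higher at 6 h and 48 h, but 2 at 2 months, then 1 at 4 months, when KRT7 was lower. Against signature-positive cells 1, 2, 1 and 1 of the 4 were higher at the 4 timepoints, while 0, 0, 2 and 3 were lower. KRT19, the one with the largest ratio, was at 192 CPM in parental cells, 1231 CPM in the signature-positive ones and 2904 CPM at 4 months. KRT18 was at 1048 CPM in parental cells, 5559 CPM in the signature-positive ones and 1110 CPM at 4 months, and KRT7 at 54.9, 353 and 24.1 CPM. KRT8 was at 342, 3175, 4831, 901 and 594 CPM, highest at 48 h, where KRT6A and KRT13 dipped.

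Of 29 genes of suprabasal differentiation in the files, 10 of 13 tested were higher at 6 h than in parental cells, 9 of 12 at 48 h, 16 of 18 at 2 months, then 20 of 22 at 4 months, and 1 was lower, at 6 h. Against signature-positive cells 7 of 13, 4 of 12, 15 of 18 and 19 of 22 were higher and 0 lower. The number tested rose late because genes under 5 CPM in culture entered only once a lung library reached 5 CPM. These counts, and those of the injury genes below, therefore follow in part from that rule. LY6D, a surface protein of stratified epithelia, was at 1.57, 35.5, 15, 399 and 1633 CPM, and SPRR1B, a precursor of the cornified envelope, at 0.991, 44.7, 21.3, 386 and 335 CPM, both with the dip at 48 h. CSTB, a protease inhibitor, was at 478 CPM in parental cells and 879 CPM at 4 months (0.88 on the log2 scale), and CNFN, cornifelin of the cornified envelope, at 19.05 and 25.6 CPM (0.41), so neither was past 2-fold at 4 months against the whole parental library. At 6 h CNFN was at 5.78 CPM and was the 1 gene of this list counted as lower. In signature-positive parental cells CSTB was at 511 CPM. CNFN was at only 6.80 CPM in those cells, well below its 37.1 CPM at 2 months and 25.6 CPM at 4 months. Of 22 injury and inflammation genes of keratinocytes, 9 of 10, 10 of 10, 14 of 16 and 16 of 18 were higher at the 4 timepoints and 0 were lower. Against signature-positive cells 6 of 10, 6 of 10, 13 of 16 and 14 of 18 were higher, and 1 was lower at 2 months and 1 at 4 months. S100A7, an antimicrobial protein of inflamed skin, had 0 UMIs in parental cells and at 48 h, and was at 0.215 CPM at 6 h, 957 CPM at 2 months, then 3109 CPM at 4 months. S100A8, a calcium-binding alarmin, was at 180 and 633 CPM at the last 2 timepoints. STAT3, a transcription factor, was at 35.3 CPM in parental cells and 37.5 CPM at 4 months, and FOSL1, a subunit of AP-1, at 17.4 CPM in parental cells (106 CPM in the signature-positive ones), 238 CPM at 6 h and 28.8 CPM at 4 months.

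Of 14 genes that anchor keratin filaments to desmosomes and hemidesmosomes, 10 of 13, 10 of 13, 9 of 13 and 11 of 14 were higher than in parental cells at the 4 timepoints in order, and 1 was lower at 6 h and 1 at 4 months. Against signature-positive cells 5 of 13, 3 of 13, 3 of 13 and 4 of 14 were higher, 1, 0, 1 and 2 were lower, and the median log2 ratio at 2 months was 0.07. DSG3, a desmosomal cadherin, was at 0.747, 18.3, 10.7, 41.4 and 96.7 CPM, and ITGB4, of the hemidesmosome, at 31.9, 246, 299, 183 and 318 CPM. In parental signature-positive cells DSG3 was at 4.65 CPM and ITGB4 at 204 CPM, the latter above its 2-month level. TCHP, which binds keratin filaments, was lower, at 19.4 CPM in parental cells and 7.64 CPM at 4 months, and PKP2, a desmosomal plakophilin, at 17.8 and 8.69 CPM, was just short of 2-fold (-0.96). Of 17 lineage transcription factors, 8 of 14, 7 of 14, 10 of 16 and 11 of 16 were higher, and 3, 4, 2 and 2 were lower. Against signature-positive cells 5 of 12, 5 of 12, 6 of 14 and 6 of 14 were higher, and 2, 2, 0 and 1 were lower. ZNF750, a regulator of epidermal differentiation, was at 0.0195, 0.0307, 0.0427, 13.9 and 41.8 CPM, near 0 until 2 months. KLF4, also a differentiation factor, was at 5.14, 172, 131, 65.8 and 98.6 CPM. PITX1 was at 75.4 CPM in parental cells but 25.4 CPM in the signature-positive ones. In the lungs it was at 4.64 CPM at 6 h, 5.71 CPM at 48 h, 20.5 CPM at 2 months and 16.4 CPM at 4 months. Against signature-positive cells PITX1 was therefore lower at 6 h and 48 h, but within 2-fold at 2 and 4 months. GATA3 went from 23.8 CPM in parental cells to 56.1 CPM at 6 h and 5.39 CPM at 4 months. Of 11 other epithelial keratins, KRT80 was tested and higher at each timepoint and KRT23 at 2 and 4 months, and KRT23 was at 0.0976 CPM in parental cells and 152 CPM at 4 months. KRT80 was at 11.2 CPM in parental cells but 71.6 CPM in the signature-positive ones, against 73.2 CPM at 2 months and 56.1 CPM at 4 months, so against those cells it was higher at 6 h and 48 h only.

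To see which members shared cells, each cell was thinned to 3000 UMIs and shallower cells, 76 to 281 in a library, were left out. Without KRT10, 98.6% of parental cells had no member, as did 53.2% at 6 h, 88.2% at 48 h, 25.9% at 2 months, then 3.72% at 4 months, and 3 or more members were found in 0.0112%, 2.07%, 0.373%, 9.18% and 16%. Pairs are given as cells with both genes over the number that the product of the 2 shares gives, and as Pearson's r over cells of the log of 1 plus UMIs per 10000. Cells of a library share its source and depth, so these are descriptions.

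By count of cells, KRT6A and KRT13 were the pair of members without KRT10 most often found together at 6 h. Both were in 210 of 1834 cells, 1.67 times the 126 from the shares, with r = 0.30. KRT6A with KRT16 was at 1.69 times, in 43 cells (r = 0.12). KRT6A also stood at r = 0.30 with KRT18 and 0.29 with KRT8, so such an r was not particular to KRT13. KRT13 was in 33.4% of KRT6A-positive cells and 13.0% of the others. KRT16 met KRT14 in 15 cells at 6 h, 7.59 times the number from the shares (r = 0.33), and met KRT13 in 33 cells, 2.23 times (r = 0.14). In parental cells 9 had both KRT6A and KRT13, 22.3 times the number from the shares, but all 9 were signature-positive, and within that class the ratio was 3.39. In r, the tie of KRT6A and KRT13 was not seen late, at 0.01 at 2 months, then 0.02 at 4 months. The ratios there were 1.15 and 0.988. KRT6A was then in 2170 of 3234 and 3987 of 4218 thinned cells. This spread keeps the ratio from reaching 1.67, so the late ratios cannot be set against that of 6 h.

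At 2 and 4 months KRT6B and KRT16 shared cells, with 146 cells and 2.71 times the number from the shares at 2 months (r = 0.35) and 572 cells and 1.77 times at 4 months (r = 0.43), while at 6 h 5 cells had both, 1.11 times. KRT6A went with KRT6B at 4 months (r = 0.43) and with KRT17 (r = 0.68 at 2 months, 0.50 at 4 months) and KRT5 (r = 0.52 and 0.37). In signature-positive cells only, chosen after seeing the data, the 2-month values for KRT6A were 0.47 with KRT17 and 0.38 with KRT5. KRT6A and KRT8 stood at r = 0.29 at 6 h and -0.30 at 4 months, and at 2 months at 0.09 in all cells but -0.34 in signature-positive cells.

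KRT13 and KRT4 also shared cells late, in a minority of cells and with low r (0.18 at 2 months, 0.16 at 4 months). At 2 months 67 cells had both, 2.49 times the number from the shares, and KRT4 was in 41.4% of KRT13-positive cells and 15.3% of the others. At 4 months 21 cells had both, 4.40 times. KRT13 met KRT15 as well, at 2.91 times at 2 months and 2.43 times at 4 months. KRT13 and KRT4 were both concentrated in signature-positive cells at 2 months, and no value within that class is given for this pair. KRT4 met KRT14 less often than the shares give, in 18 cells at 2 months (0.361 times) and 23 cells at 4 months (0.321 times), and met KRT15, another basal keratin, more often, at 1.89 and 2.47 times. KRT4 with KRT6B was at 1.14 times at 2 months (0.943 in signature-positive cells only), then 0.574 times at 4 months. KRT4 and KRT6A had r = -0.04 at 2 months, -0.20 there in signature-positive cells only, and -0.14 at 4 months.

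**Figure D4:**
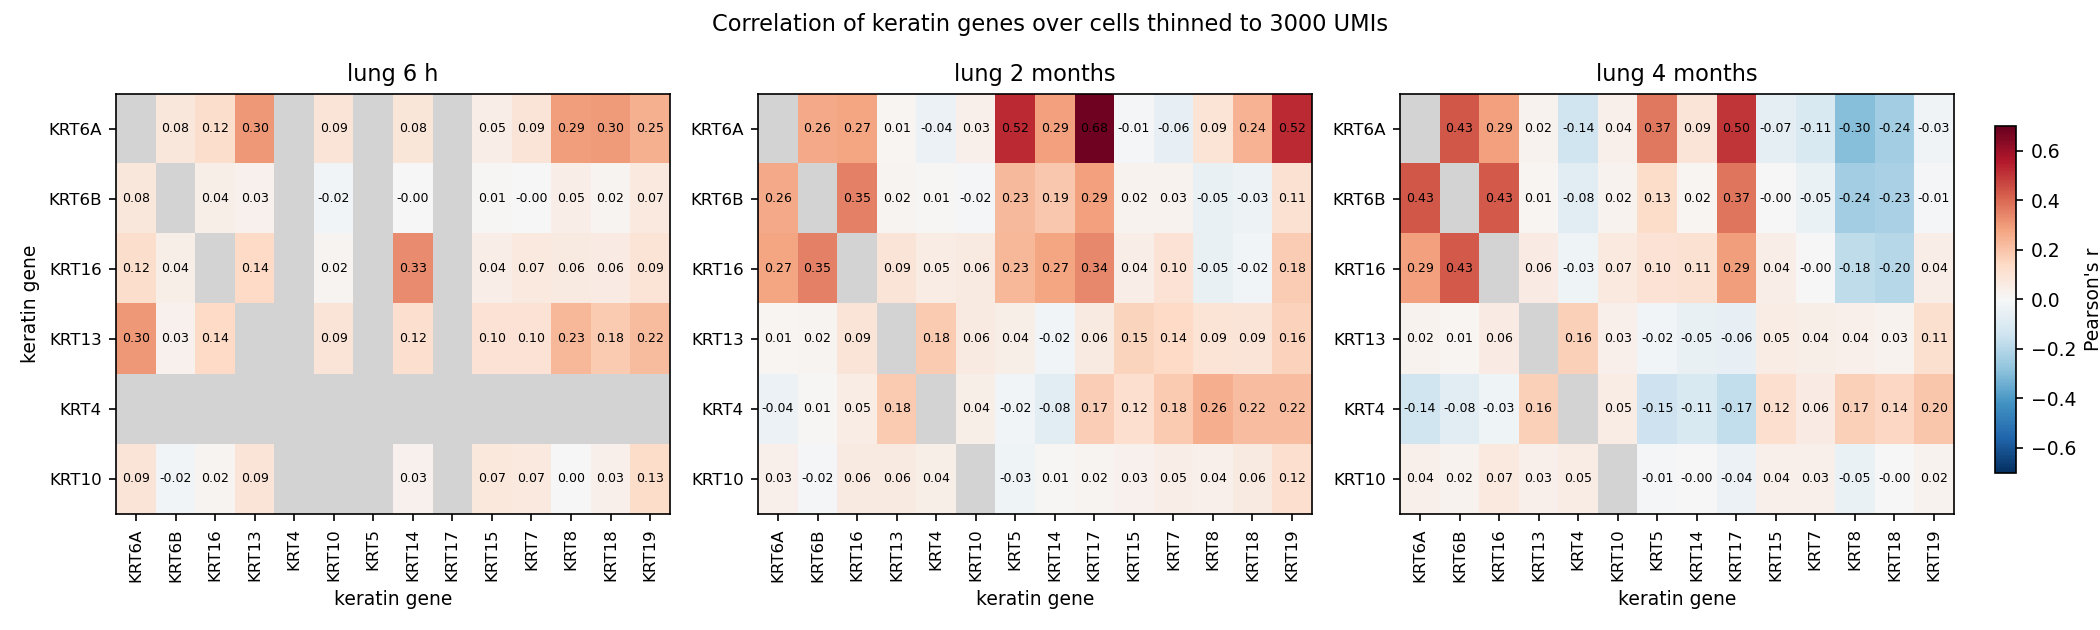
Pearson's r over cells thinned to 3000 UMIs between 6 of the keratin genes (y) and 14 keratin genes (x) at 6 h, 2 months and 4 months, with grey where a gene had fewer than 20 positive cells or met itself. KRT6A and KRT13 go together at 6 h (0.30), KRT6A with KRT17 and KRT6B with KRT16 late (0.50 and 0.43 at 4 months), KRT4 lies below 0 with KRT6A and KRT14, and KRT10 is near 0 with the members.

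The genes most like each member were ranked by mean r over the lung libraries where both genes had at least 20 CPM, among 5248 to 6198 genes whose median mean r was between -0.01 and 0.01. For KRT6A they were LGALS7B (0.45), KRT5 (0.44), KRT17 (0.42), SPRR1B (0.38, in all 4 lung libraries) and PERP (0.35), the last a desmosomal protein. For KRT6B they were SBSN (0.34), KRT17 (0.33), KRT16 (0.27), S100A7 (0.27) and KRT23 (0.27). For KRT16 they were IVL (0.36), involucrin of the cornified envelope, with SPRR2D (0.35), KRT23 (0.30), SPRR2E (0.29) and KRT6B (0.27). For KRT4 they were SLPI (0.36), a secreted protease inhibitor, AGR2 (0.33), ELF3 (0.29), S100A4 (0.25) and CLDN4 (0.25), none of which was among the first 5 of KRT6A, KRT6B or KRT16. For KRT13 they were S100A7 (0.27), SPRR3 (0.25), IVL (0.24), S100A8 (0.21) and PALMD (0.20), of which SPRR3 was compared in 2 libraries and the others in 1. For KRT10 the highest was H3F3B (0.15), a weak value in sparse counts. SBSN, SPRR2D and SPRR2E were compared in 1 library. With KRT6A, LGALS7B and KRT5 were compared in 2 libraries, KRT17 in 3, and SPRR1B and PERP in 4. The order of these means is therefore not on equal terms. At 2 and 4 months r with KRT6A was 0.68 and 0.50 for KRT17, but 0.49 and 0.40 for LGALS7B. All cells of a library were used, so the 2-month values can mix the signature classes. LGALS7B and the SPRR2 genes have near-identical copies, so their own counts are uncertain.

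Cells with a UMI of MKI67 or TOP2A, genes of dividing cells, were set beside all other lung cells. At 4 months KRT16 was at 62.5 CPM in the 910 dividing cells and 539 CPM in the other 3589 (-3.09 on the log2 scale), KRT6B at 81.4 and 462 CPM (-2.49), and KRT6A at 2345 and 4599 CPM (-0.97). KRT10 was even, at 394 and 392 CPM. At 2 months KRT13 stood at -2.91, KRT16 at -2.72, KRT6B at -2.38, KRT4 at -2.10 and KRT6A at -1.43, so each was lower in dividing cells. Signature-negative cells at 2 months were deeper than positive ones and had far less of each of these genes. The 2-month values, also those at 3000 UMIs below, can therefore mix class with division, and no value within a class is given. At 6 h KRT13 was at 103 and 290 CPM (-1.49), KRT16 at -1.36, KRT6A at -0.58 and KRT6B at 0.13. At 48 h KRT13 stood at -2.90, KRT16 at -1.77 and KRT6A at -0.41, at 79.7 and 106 CPM. Dividing cells were deeper, with a median of 39097 against 25419 UMIs at 4 months. Both the class and the levels were therefore also taken from 3000 UMIs per cell, chosen after seeing the data. At 4 months KRT16 was then at -3.98, KRT13 at -2.92 (-0.61 before), KRT6B at -2.83, KRT4 at -2.0 (-0.98 before) and KRT6A at -1.0. This KRT13 value rested on 2 UMIs in dividing and 303 in other cells. At 2 months the 5 members lay between -4.19 and -1.24. The sign turned for 2 early values. KRT6A at 48 h was at 130 CPM in dividing and 89.6 CPM in other cells (0.53, from 37 and 263 UMIs), and KRT6B at 6 h was at 20.5 and 35.9 CPM (-0.78, from 13 and 175 UMIs). KRT16 at 48 h was at -0.65, from 3 UMIs in dividing and 50 in other cells. No direction is therefore given for KRT6A or KRT16 at 48 h, or for KRT6B at 6 h.

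**Figure D5:**
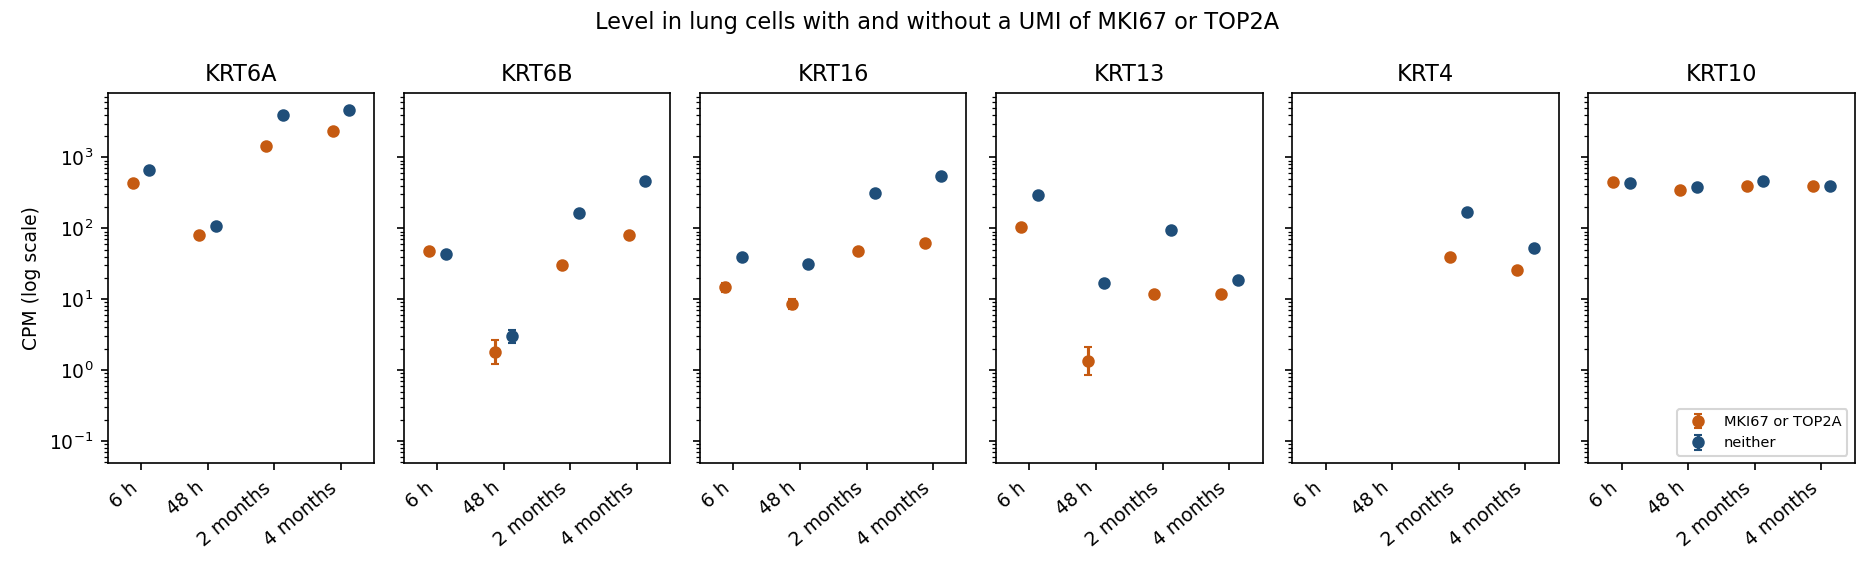
CPM on a log axis (y) of 6 keratin genes in lung cells with a UMI of MKI67 or TOP2A (orange) and in other lung cells (blue) at 4 timepoints (x), with exact 95% Poisson intervals; KRT4 is drawn where it had 20 UMIs or more. KRT16 is lower in dividing cells at 4 months, 62.5 against 539 CPM, and KRT10 is nearly even. Levels are drawn from all UMIs, neither at equal depth nor within a signature class.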

How the data were processed

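Single-cell 3′ counts of 5 libraries were analysed. The authors deposited UMI counts per gene for each barcode that the software had called a cell. They were neither normalized nor filtered for quality. The labels name Cell Ranger 3 and GRCh38 and the matrix headers give software version 3.0.2. The filter stated by the study was applied to these counts. Cells with the same barcode in another library were kept, doublets were not called, and an alternative left out the 5% deepest cells. Coordinates came from GENCODE 44, and promoters from RefSeq on GRCh38. Of the 8 members, KRT4 and KRT10 matched the promoter table.

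Computations used Python 3.11.15 with numpy 2.4.6, scipy 1.17.1, pandas 2.3.3 and matplotlib 3.10.9. CPM, log2 ratios with 1 CPM added over genes that reached 5 CPM in either group, exact intervals at 95% and seeded thinning to 1000 or 3000 UMIs are as given in the report, and 0 UMIs allow up to 3. No p-value was computed, since each group has 1 library. The computations were tested on simulated data. Named were the 8 members, from each list the 2 highest and 2 lowest genes by their ratio at 4 months, and the 5 genes most correlated with each member of at least 50 CPM in a lung library. The members and lists were chosen with earlier results of these data known. Planned were 15 alternatives, and 4 were added after seeing the data.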

Additional observations from a re-analysis of the deposited data

Results flagged for a closer look

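Barcodes that failed the quality filter also carried members of the group. The 8 keratin genes summed to 141 CPM over the 534 removed barcodes of the parental library, 599 CPM over 654 at 6 h, 309 CPM over 924 at 48 h, 2247 CPM over 2716 at 2 months and 3154 CPM over 1898 at 4 months. These barcodes were listed because they lie outside the cells used above and their summed level was above what 0 UMIs allow, and each sum was below that of the kept cells of its library. Whether they were damaged cells or free RNA was not tested.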

How the results depend on the processing

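The 46 member ratios past 2-fold were recomputed under the alternatives that apply to each, 429 values in all, of which 429 kept their sign and 425 stayed past 2-fold. The count of members lower at 4 months against 2 months, 2 as reported, was 1 with a mitochondrial limit of 10% and 1 with 10 CPM added, where KRT4 was at -0.997 and -0.966. The count higher in that comparison, 2 as reported, was 1 with signature-positive lung cells only, where KRT16 was at 0.83. All other counts of members stayed within 1.5 times of the reported count. With 10 CPM added, ratios moved by up to 3.26 on the log2 scale, and 44 of the 46 stayed past 2-fold. Beside KRT4, the ratio of KRT13 at 48 h against parental cells (11.6 and 1.80 CPM) was then no longer past 2-fold. Shares of cells depend on depth, and 38 of 40 left their counting interval at 1000 UMIs. No paired analysis was possible because each group has 1 library, and no library could be left out. A difference between timepoints cannot be told apart from one between libraries, and the 4-month library is 1 mouse.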
